A study of Mus musculus with 2 samples.

Results

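The regions described here are stretches of H3K36me2 that were called in Treg cells lacking Nsd2 and not in wild-type (WT) Treg cells. They were chosen by a rule on the deposited region lists: a region of the knockout list on chromosomes 1 to 19 and X, at least 1000 and under 4000 bp long, that shares no base with any region of the WT list. The rule found 1096 knockout-only regions among 5608 knockout regions of that length, and the other 4512 shared at least 1 base with a WT region and served as the comparison. The knockout list held 39745 regions in all and the WT list 54527. Because the rule used the positions and lengths of the calls in both lists, the number of these regions and their lack of a WT call are descriptions and were not tested.

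The study profiled splenic Treg cells of C57BL/6 mice with 1 library per genotype, wild type and Nsd2 Treg conditional knock out, on an in situ ChIP protocol in which an antibody directs a transposase to the marked chromatin. The labels do not give the Cre driver, the antibody, the age or sex of the mice, or whether animals were pooled. With 1 library on each side there was no replicate error for any difference between genotypes, and no p-value was computed. The intervals given are 95% intervals that cover counting error only.

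Dimethylation of lysine 36 of histone H3 is deposited by NSD1, NSD2, NSD3 and ASH1L, marks gene bodies and broad intergenic domains of active chromatin, and is known to oppose Polycomb methylation of lysine 27. Treg cells are the CD4 T cells that carry the transcription factor FOXP3, depend on IL-2 and restrain immune responses. A region list states where tags passed a caller's threshold, so a stretch without a WT call can still hold WT tags below that threshold, and the WT level inside the knockout-only regions was not analysed here.

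Some of the knockout-only regions lay over gene starts, and the sequences in front of 5 such starts show which kind was covered. The genes were Ergic1, whose region held the most tags of all 1096, and the 4 genes Nfkb2, Jak3, Il2rg and Gpr83. These 4 are the T cell and Treg genes of the lists below with a RefSeq promoter window wholly inside a knockout-only region. The 250 bases before each start are given 5′ to 3′ from RefSeq on GRCm38.p6, at chr17:26561262-26561511 on the plus strand, chr19:46304487-46304736 on the plus strand, chr8:71676133-71676382 on the plus strand, chrX:101268256-101268505 on the minus strand and chr9:14859960-14860209 on the plus strand. Capitals mark matches, on either strand, to the GC box GGGCGG, the KLF-type motif CACCC, the RUNX-type motif TGTGGT, the AP-1 motif TGAGTCA and a pair of ETS cores. Matches of CACCC may overlap one another, and no motif contains another.
Ergic1: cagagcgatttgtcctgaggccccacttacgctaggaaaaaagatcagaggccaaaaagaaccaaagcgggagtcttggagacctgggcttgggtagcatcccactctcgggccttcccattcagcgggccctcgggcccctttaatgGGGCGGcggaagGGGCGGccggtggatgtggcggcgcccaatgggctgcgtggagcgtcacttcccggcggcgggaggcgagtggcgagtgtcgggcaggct
Nfkb2: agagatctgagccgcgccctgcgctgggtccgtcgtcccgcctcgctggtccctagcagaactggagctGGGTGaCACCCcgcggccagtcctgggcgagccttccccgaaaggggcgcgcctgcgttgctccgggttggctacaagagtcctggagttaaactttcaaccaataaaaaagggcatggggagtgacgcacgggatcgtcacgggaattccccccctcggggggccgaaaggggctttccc
Jak3: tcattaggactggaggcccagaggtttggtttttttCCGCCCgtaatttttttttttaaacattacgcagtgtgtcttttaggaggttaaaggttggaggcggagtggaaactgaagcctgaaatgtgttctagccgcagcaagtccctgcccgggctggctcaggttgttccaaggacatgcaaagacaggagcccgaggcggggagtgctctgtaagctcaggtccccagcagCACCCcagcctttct
Il2rg: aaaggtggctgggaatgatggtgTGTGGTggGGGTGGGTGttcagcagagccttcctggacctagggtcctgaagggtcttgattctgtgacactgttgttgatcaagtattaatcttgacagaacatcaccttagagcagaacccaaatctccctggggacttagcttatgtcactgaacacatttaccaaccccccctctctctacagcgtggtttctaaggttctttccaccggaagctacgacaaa
Gpr83: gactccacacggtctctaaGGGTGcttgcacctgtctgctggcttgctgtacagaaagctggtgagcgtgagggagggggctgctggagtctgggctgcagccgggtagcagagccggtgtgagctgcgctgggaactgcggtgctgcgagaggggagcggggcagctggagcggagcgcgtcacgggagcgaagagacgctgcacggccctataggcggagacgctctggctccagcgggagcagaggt

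The Ergic1 window held 20 CpG dinucleotides, had a GC content of 64.8% and had 2 matches to GGGCGG. The Nfkb2 window was alike in composition, with 21 CpG and 64.8% GC, and matched CACCC 2 times. The Gpr83 window had 18 CpG, 66.8% GC and 1 CACCC match. The Jak3 window had 8 CpG, 52.4% GC and 1 match each to CACCC and GGGCGG. The Il2rg window had only 3 CpG and 49.2% GC, and it was the only 1 of these 5 windows with a match to TGTGGT. The 5 starts therefore included CpG-rich and CpG-poor kinds.

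Over all windows, 109 of 21045 coding promoter windows, or 0.518%, shared a base with a knockout-only region, and 431, or 2.05%, shared one with a knockout region of the same length that overlapped WT. The 109 windows belonged to 92 genes. Their median GC content was 62.0% (59.2 to 64.0), against 59.2% (58.4 to 60.4) for the windows of the overlapping regions and 55.6% for all windows. The median number of CpG dinucleotides was 16 (13 to 19), 11 (10 to 13) and 10 in the same order. CACCC matched 71.6% (62.1 to 79.8) of the 109 windows, 62.9% (58.1 to 67.5) of the 431 and 54.4% of all windows. GGGCGG matched 60.6% (50.7 to 69.8), 52.4% (47.6 to 57.2) and 43.1%. TGTGGT was found in 8.26% (3.85 to 15.1) of the 109 windows, 16.9% (13.5 to 20.8) of the 431 and 12.2% of all. TGAGTCA was found in 3.67%, 3.02% and 4.09%, and the ETS pair in 2.75%, 1.16% and 1.32%. The windows under knockout-only regions were thus richer in GC and CpG than all promoter windows, while for GC content and the first 3 motifs their intervals overlapped those of the windows under regions shared with WT.

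The WT library had 17158154 tags and the knockout library 14789700. The caller required 13 tags in 500 bp in WT and 12 in the knockout, or 7.58 and 8.11 tags after scaling to 10000000 tags per library, so the threshold was the higher one in the knockout. Of the defining Treg markers, 4 of 5 held a knockout region of any length and the same number a WT region, with Ctla4 free of regions in both. All 5 T cell markers held regions in both lists. Among markers of other cells, 3 of 5 B cell and 3 of 5 myeloid markers held regions in both, covering 5725 bp in WT and 4350 bp in the knockout for B cells, and 5972 and 7356 bp for myeloid cells. None of 5 markers of NK and CD8 T cells held a knockout region, against 3 in WT, and none of 5 erythroid markers, against 1 in WT. Ms4a1, Lyz2, Cd14, Ncr1, Cd8a and Gata1 were free of regions in both lists. A part of other cells in the results was not tested.

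Knockout-only regions were a minority of the knockout regions of their length, and they were short within the range. They made up 19.5% (18.5 to 20.6) of the 5608 regions. The mirror count, WT regions of the same length with no knockout base, was larger: 2469 of 7709, or 32% (31.0 to 33.1). The share of knockout-only regions was 27.7% (25.6 to 29.95) at 1000 to under 1250 bp, 26.3% (23.9 to 28.8) at 1250 to under 1500 bp and 18.3% (16.3 to 20.4) at 1500 to under 2000 bp. It was 5.23% (3.89 to 6.85) at 2000 to under 3000 bp and 0.809% (0.167 to 2.34), 3 of 371 regions, at 3000 to under 4000 bp. In each of these classes the WT share without a knockout base was higher, from 43.0% in the shortest to 4.55% in the longest. The median length was 1310.5 bp for knockout-only regions and 1542 bp for overlapping ones, and 791 of the 1096 were under 1500 bp.

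**Figure D1:**
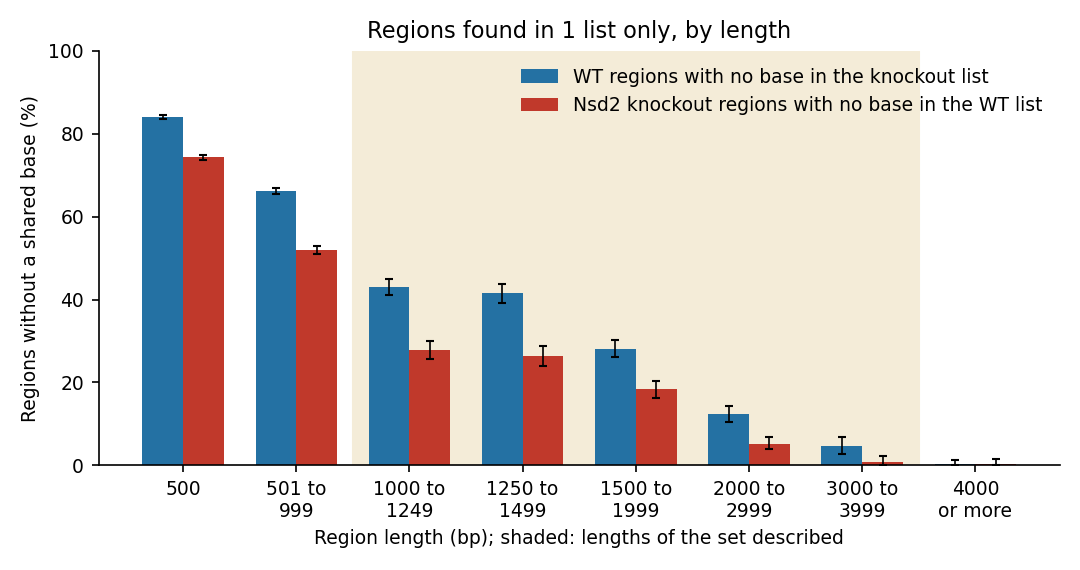
The plot gives, for regions of each length, the percentage of WT (blue) and Nsd2 knockout (red) regions that share no base with the other list, with exact 95% intervals, and the shaded classes are the lengths described here. Both shares drop with length, and the knockout share is 27.7% at 1000 to under 1250 bp and 0.809% at 3000 to under 4000 bp.

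Regions just inside the lower limit of length held 15.9 to 17.2 normalised tags, and those just outside it 17.9 to 18.9. The shortest inside were 1000 bp in D430042O09Rik (16.9 normalised tags), 1002 bp in Lamc1 (17.2) and 1003 bp near Lbh (15.9), and the longest outside the lower limit were 999 bp near Plcl2 (18.9), 999 bp near Nr4a3 (18.9) and 998 bp in Clec16a (17.9). Only 1 knockout-only region reached 4000 bp, a stretch of 5242 bp with 81.1 normalised tags in Dgat1, which makes the final step of triglyceride synthesis. Overlapping regions close to membership shared 12 bp near F12 and 16 bp in Gse1 with WT. On the other side, the regions in Cd247 (the CD3 zeta chain) and near Zmiz1 touched a WT region end to start with 0 bp between them, and the region in Itgae (the CD103 integrin chain) lay 5 bp from one.

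Tag levels were lower in knockout-only regions than in the overlapping ones. Normalised tags and scores are the authors' values from the caller, and a score counts tags per 500 bp peak, judged from its values. The median was 20.3 normalised tags per region (lowest 14.9, highest 53.8), against 26.4 (14.2 to 579.1) in overlapping regions. Per kb of region the medians were 15.6 (interquartile range 14.6 to 16.8) and 16.7 (15.4 to 18.5), so the gap was smaller per kb. It was there in each length class, with 16.3 against 17.3 tags per kb at 1000 to under 1250 bp, 15.1 against 16.3 at 1250 to under 1500 bp, 15 against 16.3 at 1500 to under 2000 bp and 15.3 against 16.7 at 2000 to under 3000 bp. A score of at most 12.5, within 0.5 tags of the knockout threshold, was given to 50.2% (47.2 to 53.2) of knockout-only and 37.9% (36.5 to 39.4) of overlapping regions. A score of at least 15 was given to 10.4% (8.66 to 12.4) and 20.8% (19.6 to 22.0).

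The knockout threshold of 12 tags corresponds to 13.9 tags at the WT depth, above the WT threshold of 13 tags. The exact Poisson interval of 12 tags is 6.20 to 21.0, or 7.19 to 24.3 at the WT depth, a range that holds the WT threshold. This interval is for a single 500 bp peak at the threshold and not for a whole region. The WT count inside the knockout-only regions was not analysed. The median score of the members was 12.5. How many regions crossed the threshold by counting error was not tested.

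Most knockout-only regions lay close to WT regions. The median distance to the nearest WT region was 2017 bp (1788 to 2220, interquartile range 758.75 to 5512), and the largest was 828729 bp. For overlapping regions, the median distance to the nearest WT region that they did not touch was 1648 bp (1581 to 1703). Within 1 kb lay 31.6% (28.8 to 34.4) of knockout-only and 30.3% (29.0 to 31.7) of overlapping regions. Within 5 kb lay 73.3% (70.5 to 75.9) and 83.4% (82.3 to 84.5), within 10 kb 86.3% and 92.4%, and within 100 kb 99.2% and 99.5%. The shares were thus similar at 1 kb and lower for knockout-only regions at 5 and 10 kb.

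**Figure D2:**
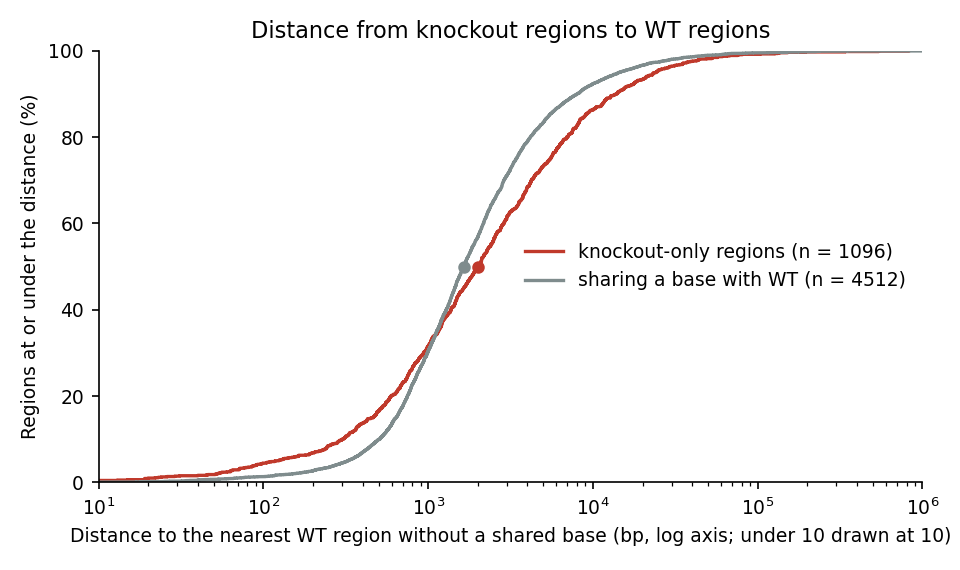
The curves give the percentage of regions at or under each distance (log axis) from the nearest WT region without a shared base, in red for the 1096 knockout-only and in grey for the 4512 overlapping knockout regions, and dots mark the medians of 2017 and 1648 bp. The red curve starts higher, crosses the grey one above 1 kb and is lower at 5 and 10 kb.

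WT calls covered fewer base pairs around knockout-only than around overlapping regions, and the nearest one was more often of the minimum length. Within 10 kb on each side, a knockout-only region had a median of 1713 bp in WT regions and 1291.5 bp in other knockout regions, against 3560 and 2718.5 bp for overlapping regions, whose own WT partner can add to the first value. A WT region lay within 10 kb on both sides of 51.7% (48.7 to 54.7) of knockout-only and 66.1% (64.7 to 67.5) of overlapping regions. The nearest WT region had the minimum length of 500 bp in 47.4% (44.4 to 50.4) and 36.3% (34.9 to 37.7), and was 1000 to under 4000 bp long in 17.9% (15.7 to 20.3) and 29.1% (27.7 to 30.4). Of all 54422 WT regions on chromosomes 1 to 19 and X, 28684 were 500 bp long and 7709 were 1000 to under 4000 bp long. That nearest WT region shared a base with another knockout region in 405 of 1096 cases, or 37.0% (34.1 to 39.9). For the 346 members within 1 kb of a WT region, 121 such neighbours, or 35% (29.9 to 40.3), were also present in the knockout list. Over the whole WT list, 84.0% of regions of 500 bp shared no base with a knockout region. That value was 66.2% at over 500 and under 1000 bp and 32% at 1000 to under 4000 bp.

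Around the knockout-only regions, too, knockout calls covered fewer base pairs than WT calls, by less than over the whole lists. Over the 50 kb on each side, with the region itself left out, knockout regions covered 89.6% as many base pairs as WT regions, and around overlapping regions the value was 88.5%, while over both whole lists it was 74.3%. Both kinds of window were placed around knockout regions, so the whole-list value is not a like comparison for them. More knockout than WT base pairs were found around 36.8% (33.9 to 39.7) of knockout-only and 30.6% (29.2 to 31.9) of overlapping regions. In windows of 1 Mb the median number of coding genes was 17 (16 to 17) around knockout-only and 14 (14 to 15) around overlapping regions. Another knockout-only region lay within 10 kb of 103 members, or 9.40% (7.74 to 11.3), and within 50 kb of 328, or 29.9% (27.2 to 32.7).

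The 10 knockout-only regions with the most tags held 40.9 to 53.8 normalised tags. The first covered the start of Ergic1, which encodes a protein of the compartment between endoplasmic reticulum and Golgi. It ran over 2966 bp at chromosome 17, 26560423 to 26563389, held 53.8 normalised tags with a score of 19, and lay 52 bp from a WT region of 629 bp and 9.62 normalised tags. The second, the longest of all at 3426 bp (chromosome 2, 167706999 to 167710425, 50 normalised tags), lay between genes, 16567 bp from Cebpb, the gene of a bZIP transcription factor. The next, 3394 bp and 48.3 normalised tags at chromosome 2, 147244481 to 147247875, lay in the non-coding gene Nkx2-2os with a score at the threshold of 12, so its length and not its density gave it its rank.

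Others of the 10 lay in Dnah17 (an axonemal dynein heavy chain, 47.3 normalised tags), Cmip (45.0), Rnf114 (a ubiquitin ligase, 41.9) and Ldlrad4 (an inhibitor of TGF-beta signalling, 41.2). A further one, with 41.2 normalised tags, lay 14308 bp outside Ets1, the ETS factor of lymphocytes, and one with 40.9 lay 1603 bp from Dusp1, a MAP kinase phosphatase. The region in Asmt, the last enzyme of melatonin synthesis, differed from these in 2 respects. It had the highest score of all members, 23.5, and the nearest WT region was 61084 bp away, while the other 9 were within 4923 bp of one.

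The 10 regions farthest from WT lay 80671 to 828729 bp from the nearest WT region. They held 16.2 to 23.7 normalised tags, where all members had a median of 20.3 (interquartile range 18.3 to 23.7), and 8 of the 10 were outside coding genes. The farthest, 1086 bp with 19.6 normalised tags on chromosome 1, was 80515 bp from Pi15, and its nearest other knockout region was 926573 bp away. Next came a region 299557 bp from Cntn6 (19.3 normalised tags, 542169 bp from WT) and a region 201696 bp from Vwc2 (21.0, 338902 bp). Those inside genes were in Rab3c, a vesicle GTPase of secretory cells (17.9, 194671 bp), and Tmem117 (21.6, 126767 bp). No WT region lay within 50 kb of 20 knockout-only regions, or 1.82% (1.12 to 2.80), against 23 overlapping regions, or 0.510% (0.323 to 0.764).

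The share of regions in coding genes was higher for knockout-only than for overlapping regions, by an amount whose interval included 0 under some settings. The midpoint of 742 of 1096 was inside a protein-coding gene, 67.7% (64.8 to 70.5), against 2800 of 4512, 62.1% (60.6 to 63.5), a difference of 5.64 percentage points (2.45 to 8.76). The direction was the same in the 4 length classes under 3000 bp, with 67.3% against 60.8% at 1000 to under 1250 bp and 67.3% against 61.7% at 2000 to under 3000 bp, and at 3000 to under 4000 bp it was 33.3% of 3 regions against 63.0%. With no WT region allowed within 1000 bp the difference was 2.82 percentage points (-0.960 to 6.48), and at lengths of at least 1500 bp it was 5.81 (-0.0743 to 11.4). The members were in denser gene surroundings, as the 17 against 14 genes per Mb above show, and the part of gene density in this difference was not tested. A further 77 members, 7.03% (5.58 to 8.70), lay only in a RefSeq gene of another type, and 244, 22.3% (19.8 to 24.8), in no RefSeq gene. Long non-coding RNA genes made 133 pairs with members. Hairpins of 5 miRNAs, Mir1191b, Mir1934, Mir7235, Mir7000 and Mir207, lay inside members.

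The host genes of knockout-only regions were somewhat shorter, with a median of 53940 bp against 62942.5 bp, and 12.3% (9.99 to 14.8) of these regions against 8.29% (7.29 to 9.37) lay in genes under 10 kb. Over 4 equal parts of the gene body from start to end, the 608 members in genes with a start in the promoter table were spread as 27.8%, 21.4%, 23.5% and 27.3%. Of 2217 overlapping regions, 31.7%, 23.3%, 22.1% and 23.0% lay in the same parts. The share in the last part was 27.3% (23.8 to 31.0) against 23.0% (21.3 to 24.8), so those intervals overlapped.

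Around coding start sites the 2 sets were close to each other. The starts were those of the promoter table, which covered 17274 of 21631 coding genes. A region whose own gene had no start there was placed by the start of another gene. The member inside Ets1, for instance, was 303373 bp from the nearest start used. Of 1081 members off chromosome 18, 7.86% (6.33 to 9.63) had their midpoint under 2 kb downstream of the nearest such start. The share was 6.05% (5.37 to 6.80) of 4428 overlapping regions. At 10 to 50 kb downstream the shares were 25.1% (22.5 to 27.8) and 21.3%, and over 50 kb upstream 10.5% (8.78 to 12.5) and 13.6% (12.6 to 14.6). A coding promoter window was touched by 82 members, 7.59% (6.08 to 9.33), and by 343 overlapping regions, 7.75% (6.98 to 8.57).

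**Figure D3:**
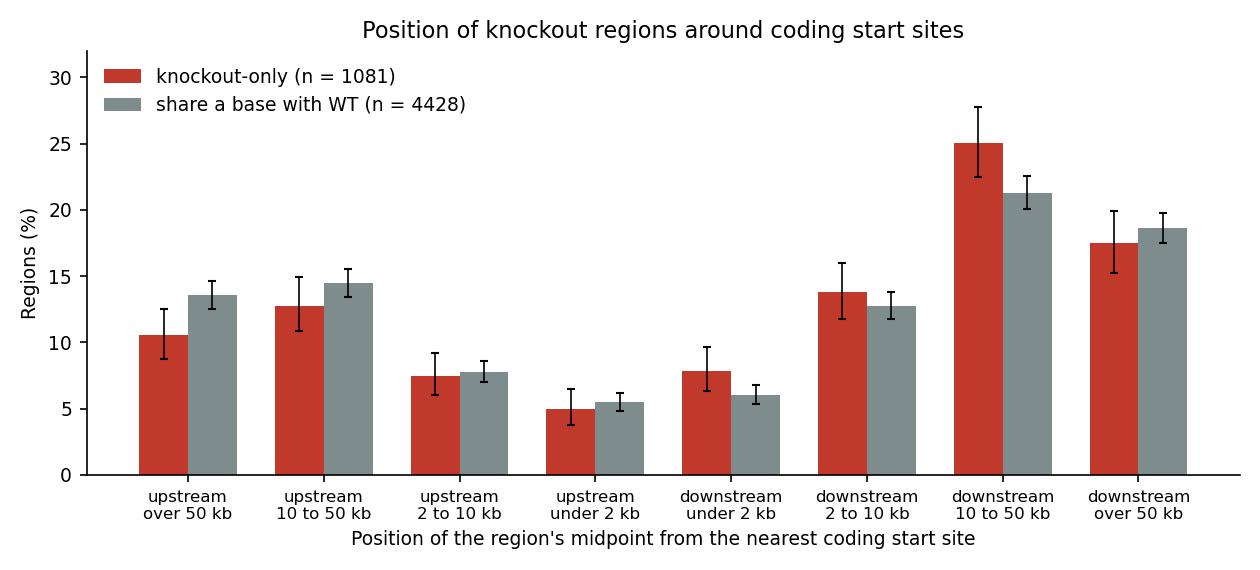
Bars give the percentage of knockout-only (red, n = 1081) and overlapping (grey, n = 4428) knockout regions at each position, with exact 95% intervals. The position is that of the midpoint from the nearest coding start site in the promoter table. Where a region's own gene has no start there, the start of another gene is used. The profiles run in parallel, and the red bars are higher at 10 to 50 kb downstream (25.1%) and lower at over 50 kb upstream (10.5%).

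The 775 members that touched a coding gene body did so in 714 genes, 3.3% of 21631. Overlapping regions of the same length were held by 1761 genes, 8.14%, and WT-only regions of the same length by 1302 genes, 6.02%. Of the 714 genes, 638 held 1 member, 76 held 2 or more and 10 held 3 or more. They were long, with a median of 39563.5 bp against 17329 bp for all coding genes. Most also held WT calls: 625, or 87.5% (84.9 to 89.9), had a WT region somewhere in the body and 278, or 38.9% (35.3 to 42.6), also an overlapping region of 1 to under 4 kb. Of all 21631 coding genes, 11404 held a region of any length in either list. The part of gene length in these shares was not tested. In 192 genes, 26.9% (23.7 to 30.3), there was also a WT-only region of that length, so calls of either list alone stood in the same gene body.

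Inpp4b, a lipid phosphatase that acts on the PI3K pathway, held the most members, 6 regions of 15.2 to 22.0 normalised tags and 7486 bp in all. Its 792047 bp body had 43 WT regions over 40375 bp and 72 knockout regions over 68809 bp, or 5.10% and 8.69% of the body. Among the 6 members, 4 lay within 1252 bp of a WT region and 1 was 26145 bp from any. No WT-only region of 1 to under 4 kb was found in Inpp4b.

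Nfkb2, which encodes the p100 precursor of the non-canonical NF-kB pathway, held 2 members. Those of 1847 bp (27.7 normalised tags, over the start shown above) and 1646 bp (21.3) lay in a body of 11407 bp that held a single WT region of 500 bp. The start shown lies inside that body, which begins at position 46300994, while the member over it begins at 46304236. Coverage of the body was 4.38% in WT and 35% in the knockout list. Plcd3, a phospholipase C, held 3 members (17.6, 21.0 and 21.0 normalised tags) and no other knockout region, and its coverage was 1261 bp in WT and 3844 bp in the knockout.

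Of the 76 genes with 2 or more members, 42 had more base pairs in knockout than in WT regions and 34 had fewer. Ldlrad4 held 3 members, yet its coverage was 27222 bp in WT and 17997 bp in the knockout. Gse1 held 2 members with 57440 and 42833 bp, Prex1, a Rac exchange factor, 2 with 52691 and 46066 bp, and Bcl2l1, the gene of BCL-XL, 2 with 15539 and 12887 bp. Ergic1 (16117 and 18176 bp), Cmip (28987 and 30637 bp), Prrc2b (12589 and 14295 bp) and Arhgap39 (11094 and 12503 bp) each held 3 members and had more base pairs in the knockout list than in WT. Prkch, protein kinase C eta, was covered over 62406 bp in WT and 75399 bp in the knockout, with 3 members, and Sh3bp5 over 10634 and 13464 bp, with 3. Dnah17 (21127 and 18833 bp) and Ttc7 (17531 and 14731 bp) held 2 members each. Over the 714 genes, 65.3% (61.6 to 68.8) had more base pairs in knockout than in WT regions, a share raised by the rule itself, against 46.3% of genes with an overlapping region and 36.9% of the 11404 genes with any region.

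In 48 of the 714 genes, no WT region lay in the body or within 5 kb of it. By base pairs held, the first were Asmt (41.2 normalised tags), Ago1 (an Argonaute protein, 27), Scrib (a cell polarity protein, 26.0) and Csnk2b (the regulatory subunit of casein kinase 2, 24.7). These genes were picked after their values were seen. Around the Scrib region, the 50 kb on each side held 12 other knockout regions over 6816 bp and 0 WT regions, with the nearest WT call 57132 bp away. Those 12 were all under 1000 bp long and held at most 17.6 normalised tags. Next to Csnk2b, 3 members lay within 26087 bp of chromosome 17 (35101562 to 35127649) in which the WT list had 0 regions.

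**Figure D4:**
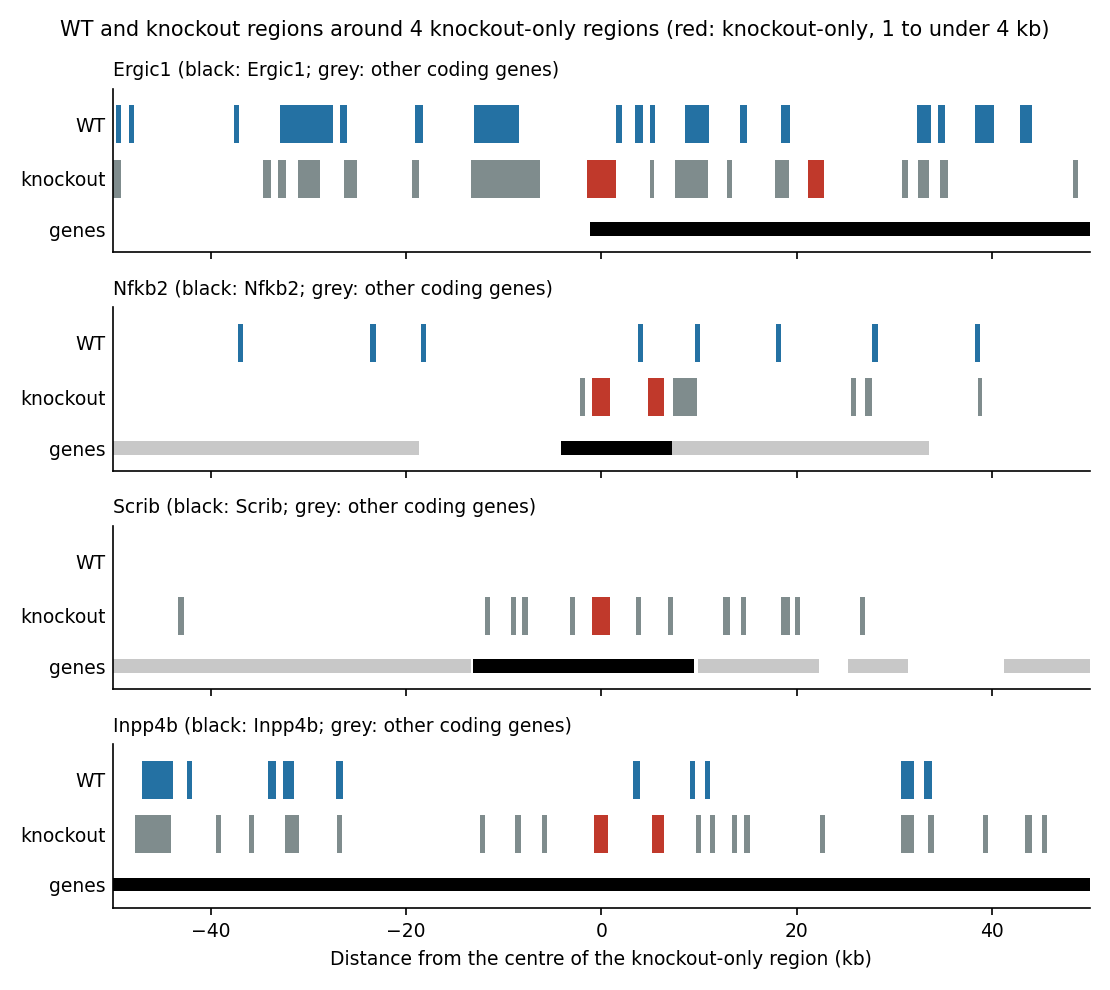
For 4 members the map shows all WT (blue) and knockout (grey; knockout-only ones of 1 to under 4 kb in red) regions within 50 kb of the member's centre, with the gene that holds it in black and other coding genes in grey, drawn to scale. With the member itself counted, Ergic1 has 17 regions in each list, Nfkb2 8 WT and 7 knockout regions, Scrib 0 WT and 13 knockout regions, and Inpp4b 10 WT and 20 knockout regions.

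Among 24 Treg signature genes, 5 held a knockout-only region, 12 an overlapping one and 3 a WT-only one, beside 3.3%, 8.14% and 6.02% of all coding genes. The Foxp3 member, 1541 bp at the end of the gene (chromosome X, 7594111 to 7595652), held 22.3 normalised tags and was 7549 bp from the nearest WT region. Of this region 1132 bp lay in Foxp3, and all of it lay in the neighbouring gene Ccdc22, so its tags cannot be assigned to Foxp3 alone. The Foxp3 body was covered over 2743 bp in WT and 4652 bp in the knockout. Tgfb1, the gene of the cytokine TGF-beta 1, held a member of 29.8 normalised tags, 2121 bp from WT, and its body had no WT region and 2502 bp in knockout regions. The members in Lrrc32 (GARP, which anchors latent TGF-beta on the Treg surface, 18.3 normalised tags) and Itgae (19.9) lay 1038 and 5 bp from WT regions. The Gpr83 member (17.9, 759 bp) lay over its start. Coverage was 5164 and 6183 bp for Lrrc32, 7366 and 5587 bp for Itgae and 2906 and 1808 bp for Gpr83, in WT and knockout, so 3 of the 5 had more and 2 had less in the knockout. Il2ra, Il2rb, Ikzf2, Ctla4, Icos and Il10 held no knockout-only region.

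Of 26 T cell identity genes, 7 held a knockout-only region, 19 an overlapping one and 6 a WT-only one. The shares of all coding genes were 3.3%, 8.14% and 6.02%, and the listed genes were longer (median 33866.5 bp against 17329 bp). Cd5, a brake on T cell receptor signalling, held 2 members (17.2 and 23.0 normalised tags) with 8771 bp covered in WT and 10612 bp in the knockout. The Ets1 member, 2134 bp and 31.8 normalised tags, filled a gap between WT regions 91 bp to its left and 132 bp to its right. In Cd247 the member (28.4) touched a WT region, and coverage of the body was 27202 bp in WT and 21698 bp in the knockout. Members in Lck, Tcf7 and Tox held 17.6, 16.9 and 24.0 normalised tags. The Tox member was 4257 bp from WT, and those in Lck and Tcf7 were 867 and 424 bp from it.

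Of 24 genes of T cell receptor, NF-kB and NFAT signalling, 4 held a knockout-only region, 11 an overlapping one and 2 a WT-only one. Besides Nfkb2, they included Nfkb1 (19.6 normalised tags, 1570 bp from WT) and Nfatc2 (17.2, 985 bp). Nfkb1, the p105 gene, differed from Nfkb2 in its whole body, with 10213 bp covered in WT and 5135 bp in the knockout. Of 20 genes of IL-2, JAK-STAT and SOCS signalling, 6 held a knockout-only region, 12 an overlapping one and 4 a WT-only one. Beside both lists stand 3.3%, 8.14% and 6.02% of all coding genes. Median gene lengths were 17697.5 bp in the first list, 26511.5 bp in the second and 17329 bp over all coding genes. Bcl2, the survival factor (21.0 and 22.0 normalised tags), and Jak1, a kinase of common gamma chain receptors (19.6 and 21.3), held 2 knockout-only regions each. Il6ra (22.0), Jak3 (22.0), Il2rg (the common gamma chain, 21.0) and Socs3 (20.6) held 1 each, and those of Jak3 and Il2rg covered the starts shown above. The bodies of 4 of the 6 were covered over more base pairs in the knockout than in WT: Il2rg over 500 bp in WT and 1573 bp in the knockout, Socs3, a feedback inhibitor of STAT3, over 1274 and 2438 bp, Jak3 over 1125 and 1560 bp and Jak1 over 15184 and 15531 bp. Those of Bcl2 (25530 and 23922 bp) and Il6ra (17317 and 15983 bp) were covered over fewer.

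Among 19 genes of H3K36 writers, erasers and readers, 2 held a knockout-only region, Kdm2b (a lysine 36 demethylase, 23.3 normalised tags) and Hdgfl2 (a PWWP reader, 28.4), while 5 held an overlapping and 3 a WT-only one. Nsd2 itself, Nsd1, Nsd3, Ash1l and Setd2 held none. The Nsd2 body held 0 WT regions and a single knockout call of 500 bp, which shows nothing about the deleted part of the gene. Of 20 Polycomb and lysine 27 genes, 3 held a knockout-only region, 2 an overlapping one and 0 a WT-only one. Beside both lists stand 3.3%, 8.14% and 6.02% of all coding genes. Median gene lengths were 77291 bp in the first list, 24410 bp in the second and 17329 bp over all coding genes. The Kdm6b member (a lysine 27 demethylase, 40.2 normalised tags, 154 bp from WT) was among the larger ones, and body coverage was 4161 bp in WT and 7933 bp in the knockout. Cbx7 (23.7) had 3866 and 7665 bp, and Ring1 (24.0) 682 and 1818 bp.

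Of 24 genes of metabolism and mTOR signalling, 5 held a knockout-only region, 6 an overlapping and 5 a WT-only one. The shares of all coding genes were 3.3%, 8.14% and 6.02%, and the listed genes were longer (median 37450 bp against 17329 bp). Akt1 (27 normalised tags) was covered over 2787 bp in WT and 5500 bp in the knockout, Hk1, hexokinase 1 (28.1), over 8285 and 6449 bp, and Rptor, the mTORC1 scaffold (19.3), over 20791 and 11114 bp. The chemokine receptor and effector lists of 20 genes held 1 member gene each, Cxcr3 (27.7) and Bach2 (16.9), with 9 and 6 genes that held an overlapping region. Of the 1802 bp of the Cxcr3 member only 106 bp lay in the gene. Coverage in WT and knockout was 692 and 555 bp for Cxcr3 and 75905 and 63227 bp for Bach2. Of 12 B cell genes Cd79b alone held a member (16.2), and of 14 housekeeping genes Eef2 alone (18.3). No member lay in the 13 myeloid, 8 NK and CD8, 8 erythroid or 12 developmental genes.

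Over all 264 listed genes, 36 held a knockout-only, 89 an overlapping and 31 a WT-only region of 1 to under 4 kb, or 13.6%, 33.7% and 11.7%. Over all coding genes the shares were 3.3%, 8.14% and 6.02%. Genes with a knockout-only region thus outnumbered those with a WT-only one among the listed genes, 36 to 31, while over all coding genes they were fewer, 714 to 1302. The listed genes were longer than the rest, with a median of 20975.5 bp against 17329 bp, and they were chosen as T cell and chromatin genes with earlier results of these data known. The part of length in these shares was not tested, and no list was tested.

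The share of knockout-only among knockout regions of this length varied over chromosomes, from 12% (8.44 to 16.3) on chromosome 6 and 13.7% (10.1 to 17.9) on chromosome 9 to 24.2% on chromosome 17 and 25.9% (18.8 to 34.2) on chromosome 19.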

How the data were processed

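H3K36me2 was profiled in splenic Treg cells, with 1 WT and 1 Nsd2 Treg conditional knockout library and therefore no test between genotypes. Per the submitters' processing notes, reads were handled with Trim Galore, Bowtie2, Picard, HOMER and deepTools on mm10; no version is named there. Per the file headers, HOMER called regions in each library alone, in 500 bp peaks stitched to regions, with no control library. The signal deposited by the authors is a normalised tag count per 10000000 tags, the deposited score is on the scale of tags per peak, and the deposited clonal fold ratio was not used. Scaling to equal totals removes any genome-wide change of the mark. Tags are PCR reads without molecular identifiers.

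Lengths are end minus start, coordinates are as deposited, and 1 shared base counted as overlap. Distances are between region edges. Genes are RefSeq protein-coding genes of GRCm38.p6; promoter windows (250 bp before to 50 bp after a start) covered 17274 of 21631 coding genes, none on chromosome 18 being used here, and motifs were sought in the 250 bp before the start. Shares have exact Clopper-Pearson 95% intervals, medians exact order-statistic intervals and the difference of shares a square-and-add interval from them; they treat regions as independent, which neighbouring regions are not. The tools were matplotlib 3.10.9, pandas 2.3.3, numpy 2.4.6 and scipy 1.17.1 under Python 3.11.15, and the code was tested on simulated lists.

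The members and the 15 gene lists (264 genes, all found) were chosen with earlier results of these data known. Named were the 10 regions with most tags, the 10 farthest from WT, the 5 longest, 3 on each side of each limit and the 3 nearest to WT; the first 15 genes by base pairs with 2 or more members; 3 genes per list; and the writer genes and Foxp3. Further list genes, the promoter genes and the genes without a WT region nearby were named after their values were seen. Alternatives changed the overlap rule, the distance, the threshold, the length limits, merging, chromosomes and gene flanks. A few genes that the naming rules pick are counted but not reported here by name.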

Additional observations from a re-analysis of the deposited data

Results flagged for a closer look

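Outside chromosomes 1 to 19 and X, which the rule leaves out, 4 of 29 knockout regions of 1 to under 4 kb shared no base with a WT region, or 13.8% (3.89 to 31.7). They lay on unplaced or alternate sequences and held 18.3 to 24.7 normalised tags, and 0 of the 3 such regions on chromosome Y was without a WT base. This was noted because no comparison of the report uses these sequences; the interval holds the 19.5% found on the other chromosomes.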

How the results depend on the processing

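Of 58 alternative values, 39 stayed within the interval or within 1.5 times the count of the main value and 19 did not. Only the difference in tags per kb and the difference in the share in coding genes could change direction, and neither did. The number of knockout-only regions, 1096, was 1846 with at least 10 normalised tags required in both lists, 305 at lengths of at least 1500 bp and 369 with a knockout score of at least 13.5. Their share, 19.5%, was 20.8% when WT could cover under 10% of a region, 13.4% with no WT region allowed within 1000 bp, 25.8% with 500 bp WT regions held to the knockout threshold, 32.9% at 10 tags, 11.3% at 1500 bp, 23.4% after merging regions closer than 1000 bp and 14.7% at a score of 13.5. The median distance to WT, 2017 bp, was 1765, 3723.5, 3002, 4479 and 2376.5 bp under the 10% cover, 1000 bp distance, threshold, 10-tag and merging settings; the 1000 bp setting lengthens it by construction. The difference in normalised tags per kb was -1.57 at 1500 bp (main -1.08). Genes with a member numbered 1115 at 10 tags and 227 at 1500 bp (main 714). The share in coding genes, 67.7%, was 77.3% with 5 kb flanks. The difference in that share stayed between 2.82 and 6.03 percentage points, but its interval included 0 with no WT region within 1000 bp (-0.960 to 6.48) and at 1500 bp (-0.0743 to 11.4). The causes were not tested. The score limit, counting both end positions as bases (1094 regions) and lengths under 1500 bp were chosen after seeing the data. No paired analysis was possible because each genotype has 1 library, and for the same reason no library could be left out. Depth may limit the calls, as the knockout threshold was 12 tags in 500 bp. By how many tags the libraries differ in a region present in 1 list only was not analysed.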
